A study of Mus musculus with 12 samples.

Results

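The genes described here are Myc and 37 genes of nucleolar ribosome biogenesis, 38 in all, taken from the 24982 gene symbols of a count table of B-ALL cells, a mouse model of acute lymphoblastic leukaemia of the B lineage. The files spell them in capitals (MYC, NOP56, NOP58, FBL, NCL, NPM1, DKC1, GNL3 and so on), and mouse spelling is used below. The rule that picks them is a list of names and uses no measured value, though the list was drawn up with earlier results of these data known. They fall into 8 roles: Myc itself, the box C/D and box H/ACA small nucleolar ribonucleoproteins (snoRNPs), nucleolar phosphoproteins and chaperones, RNA polymerase I, nucleolar regulators, and assembly of the small and of the large ribosomal subunit. All 38 symbols were found and all 38 passed the filter on low counts, among 11988 genes tested. The cells were of 2 lines. DKO cells have the genotype Bax-/-,Bak-/-, a deletion of 2 effector genes whose proteins form pores in mitochondria during apoptosis, and TKO cells have the genotype Bax-/-,Bak-/-,Mcl-1-/- and additionally lack an anti-apoptotic protein of the BCL-2 family. Each line was grown for 24 h in regular or in low-glucose medium, with 3 libraries in each of the 4 groups. The labels name 1 line of each genotype, so what the loss of Mcl-1 did cannot be told apart from other differences between these lines, and they do not say whether the 3 replicates of each group were grown separately, so the p-values reflect the spread of these libraries, which may be technical.

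Ribosome production starts in the nucleolus, where RNA polymerase I transcribes the ribosomal RNA precursor. Small nucleolar RNAs, carried by box C/D and box H/ACA proteins, guide methylation and pseudouridylation of that precursor, while large assembly complexes fold and cut it and load it with ribosomal proteins to make the small and the large subunit. MYC, a basic helix-loop-helix leucine zipper factor that works as a dimer with MAX, binds the DNA letters CACGTG, called the E-box, and is known as a broad activator of the genes for this machinery. Tumours of the B lineage often carry high MYC activity.

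Because the E-box links MYC to its target genes, the promoters of the members were read for these letters in the RefSeq promoter table (GRCm38.p6), in windows from 250 bases before to 50 bases after each start site. CACGTG reads the same on both strands, so a single search covers both. The table held 32 of the 38 members, and those not matched were Myc, Fbl, Npm1, Nol6, Rrp12 and Bop1. The comparison that follows is a description, without a test. Genes of the table were not limited to those tested here, nor chosen to equal the members in level or base composition. The letters stood in the window of 8 of the 32 members (25.0%), against 2187 of 27025 genes of the table (8.09%). These 8 promoters held 9 matches, shown 5′ to 3′ on the strand of the gene with up to 12 bases on each side and the E-box letters in capitals.
Grwd1, chr7:45830740-45830767, minus strand: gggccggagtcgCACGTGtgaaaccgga
Mybbp1a, chr11:72441355-72441376, plus strand: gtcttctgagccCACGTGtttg
Nop2, chr6:125131811-125131840, plus strand: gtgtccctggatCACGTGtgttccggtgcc
Pes1, chr11:3963965-3963994, plus strand: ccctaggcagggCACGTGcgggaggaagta
Rrn3, far match, chr16:13780472-13780501, plus strand: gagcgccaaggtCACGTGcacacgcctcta
Rrn3, near match, chr16:13780639-13780668, plus strand: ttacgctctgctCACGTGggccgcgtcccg
Tsr1, chr11:74898092-74898121, plus strand: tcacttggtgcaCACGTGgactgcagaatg
Utp20, chr10:88826765-88826789, minus strand: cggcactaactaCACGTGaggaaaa
Wdr43, chr17:71616220-71616249, plus strand: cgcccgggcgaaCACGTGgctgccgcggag

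Of the 9 matches, 6 (66.7%) lay after the start site, between 2 bases (Pes1) and 40 bases (Mybbp1a) downstream, and the other 3 lay 48 and 215 bases upstream in Rrn3 and 60 bases upstream in Nop2. Over all genes listed, 361 of 2589 matches (13.9%) lay after the start site. A match is a string of letters and no measure of binding, and its absence says only that the letters are not in this window.

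Total counts ran from 22190736 to 56260867 per library, and each member had between 887 and 227428 counts in each library. Mcl1 stood between 237 and 273 CPM (counts per 1000000, scaled between libraries with TMM factors) in the 6 DKO libraries and between 0.17 and 0.475 CPM in the 6 TKO libraries. Transcripts counted to the genes deleted in both lines were present and differed between the lines: Bax stood at 16.9 to 23 CPM in DKO and 5.62 to 7.92 CPM in TKO libraries, and Bak1 at 15.9 to 20.2 and 4.07 to 5.73 CPM. The B-lineage label was met by all 14 early B-cell markers above 1 CPM in each group, with summed levels of 6370 to 6510 CPM in DKO in regular medium, 6620 to 6750 CPM in DKO in low glucose, 6130 to 6440 CPM in TKO in regular medium and 6090 to 6580 CPM in TKO in low glucose. These like sums hold unlike genes in regular medium, from Dntt (386 CPM in DKO, 23.5 CPM in TKO, log2 -4.07) to Rag2 (1.65 and 18.6 CPM, log2 3.46). In that medium 5 of the 14 were higher and 6 lower in TKO. Those counts lay near the shares of all tested genes, 28.3% higher and 33.4% lower. Markers of T cells summed to 8.27 to 11.1, 8.39 to 8.72, 0.425 to 0.74 and 0.783 to 0.991 CPM in the same order, nearly all of it Lat, with Cd4 at 0 throughout. Myeloid markers summed to 5.55 to 5.75, 9.8 to 10.1, 0.579 to 1.08 and 1.45 to 2.25 CPM, with Elane, S100a8 and S100a9 at 0. The part of the B-cell markers and of such traces in the members' differences between lines was not tested. The TKO libraries numbered 2 in each medium and 3 in low glucose lay furthest from their group means (median absolute log2 deviation 0.0691 to 0.0747, against 0.0113 to 0.0395 in the other libraries). In bulk RNA, fewer cells of a kind and less RNA per cell cannot be told apart.

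The members spanned a wide range of levels. On the length-scaled TPM scale (transcripts per 1000000), which allows genes to be compared, Npm1 was the highest member at 2900 ± 59.6 TPM in DKO in regular medium (SD, n = 3), followed by Ncl at 890 ± 2.53 TPM and Fbl at 615 ± 26 TPM. Myc stood at 263 ± 4.22 TPM, the eleventh highest, and the lowest member was Bysl, a factor of late small subunit maturation, at 24.3 ± 0.374 TPM. Summed over the 38 members the level was 9612 ± 33.4 TPM in DKO in regular medium and 6219 ± 173 TPM in DKO in low glucose, and 10270 ± 564 and 8837 ± 325 TPM in TKO in the same order. The 3 summed values of DKO in low glucose, 6050 to 6395 TPM, lay below those of every other group, and those of TKO in low glucose, 8571 to 9200 TPM, lay below both groups in regular medium. Npm1, the highest member, weighs most in these sums. The median level over the members was 109 and 82.9 TPM in DKO and 125 and 104 TPM in TKO, regular medium first.

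**Figure D1:**
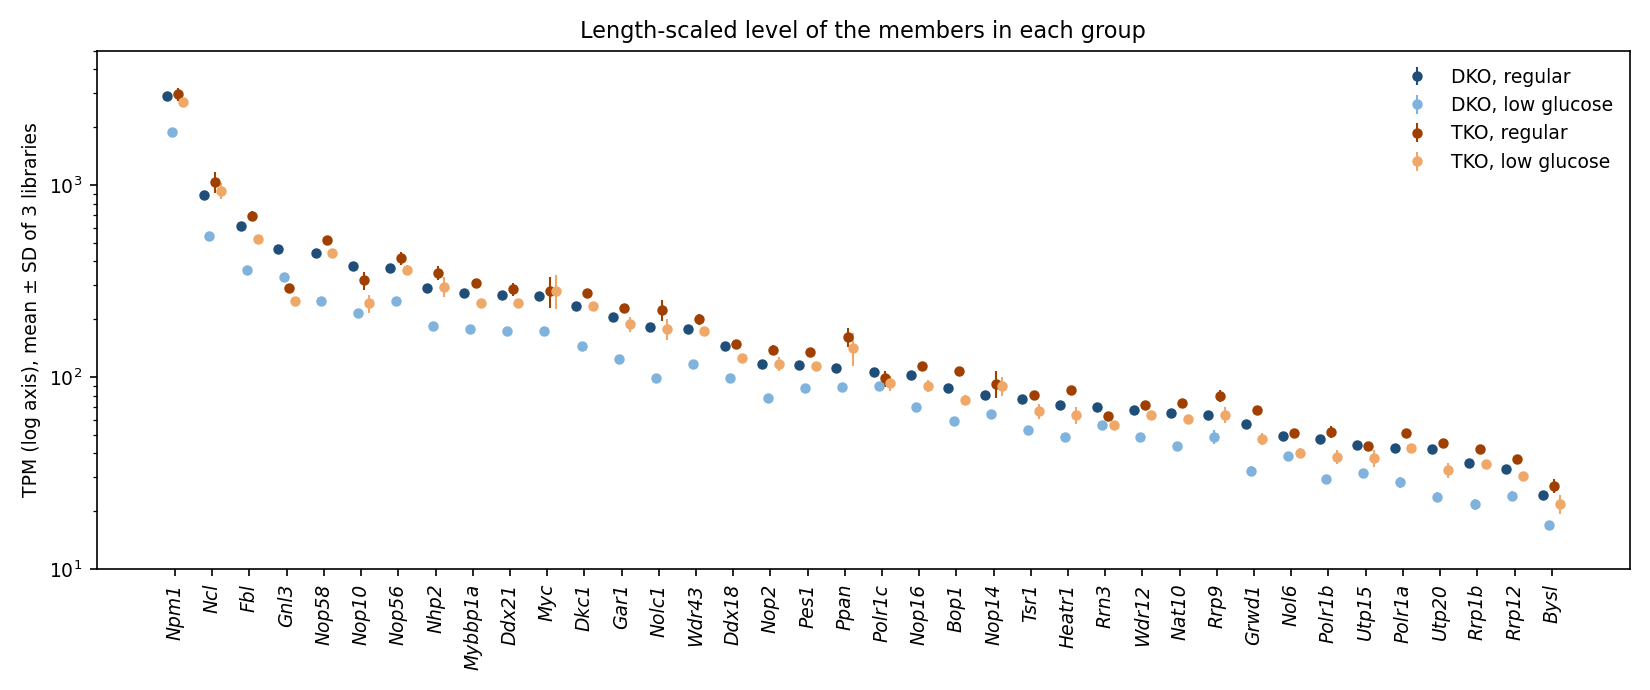
TPM of the 38 members on a log axis, ordered by level in DKO in regular medium; points are means and bars SD of 3 libraries in each of the 4 groups. The members run from Npm1 at 2900 TPM to Bysl at 24.3 TPM, and the light blue points of DKO in low glucose lie lowest for most members.

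In DKO cells, the whole set was lower in low glucose. All 38 members fell (edgeR quasi-likelihood test, Benjamini-Hochberg adjusted p under 0.05 over all 11988 genes), where 31.1% of all tested genes fell and 31.6% rose (62.7% in either direction). Their median log2 change was -0.60, a 1.52-fold fall, against a median of 0.01 over all tested genes, and only 8.14% of tested genes fell by as much as that median. The changes ran from -0.27 (Polr1c, a subunit shared by RNA polymerases I and III) to -0.92 (Nolc1, a chaperone of snoRNPs). A fall of at least 1.5-fold was called in 23 members, against 7.72% of all tested genes, and no member fell 2-fold.

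In TKO cells the fall was shallower. There 33 of the 38 members fell, where 17.9% of all tested genes fell and 22% rose (39.9% in either direction), and the 5 not called were Myc, Ncl, Polr1c, Nop14 and Ppan. The median change was -0.29, with a range from -0.02 for Myc to -0.53 for Bop1, and no member fell 1.5-fold or more, a fall called in 0.817% of all tested genes, while 6.65% rose by that much. TKO libraries numbered 2 and those numbered 3 deviated from their group means together across media (r = 0.89 and 0.77). For number 1 r was 0.34, and its library in regular medium correlated more (0.76) with one of another number. The 33 calls are from the fit without pairs. With the replicate number as a block in a fit of the TKO libraries alone, 36 members fell. Ncl (log2 -0.21), Polr1c (-0.14) and Ppan (-0.25) were added.

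The lines responded to different degrees. The test of that difference, the log2 response of TKO less that of DKO, was positive and called for 26 members and negative and called for none, where 17.6% of all tested genes were called positive and 12.1% negative (29.6% in all). Its median was 0.30, against 0.03 over all tested genes. The split of all called genes, 2106 positive and 1447 negative, depended on the scaling: it was 1720 and 1782 with the ribosomal RNA precursor Rn45s left out and 1449 and 1991 with no filter on low counts, while 23 members were called positive and none negative in both of these fits. Of the 38 members 37 had the larger fall in DKO, Nol6 being the exception. A TKO response above that of DKO, whatever the sign of either, was found in 6402 of the 11988 genes tested. Across the 38 members the responses of the lines correlated with Pearson's r = 0.44, against 0.55 across all tested genes. The 12 members not called in this test were Polr1c, Rrn3, Nol6, Rrp9, Nop14, Heatr1, Bysl, Rrp12, Bop1, Pes1, Nop16 and Ppan. Of the 11 small subunit assembly members 6 were not called and 5 were called. Of the 10 large subunit assembly members 4 were not called and 6 were called. Pes1, Nop16 and Rrp12 lay close to the threshold (edgeR adjusted p = 0.0522, 0.0525 and 0.0535).

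**Figure D2:**
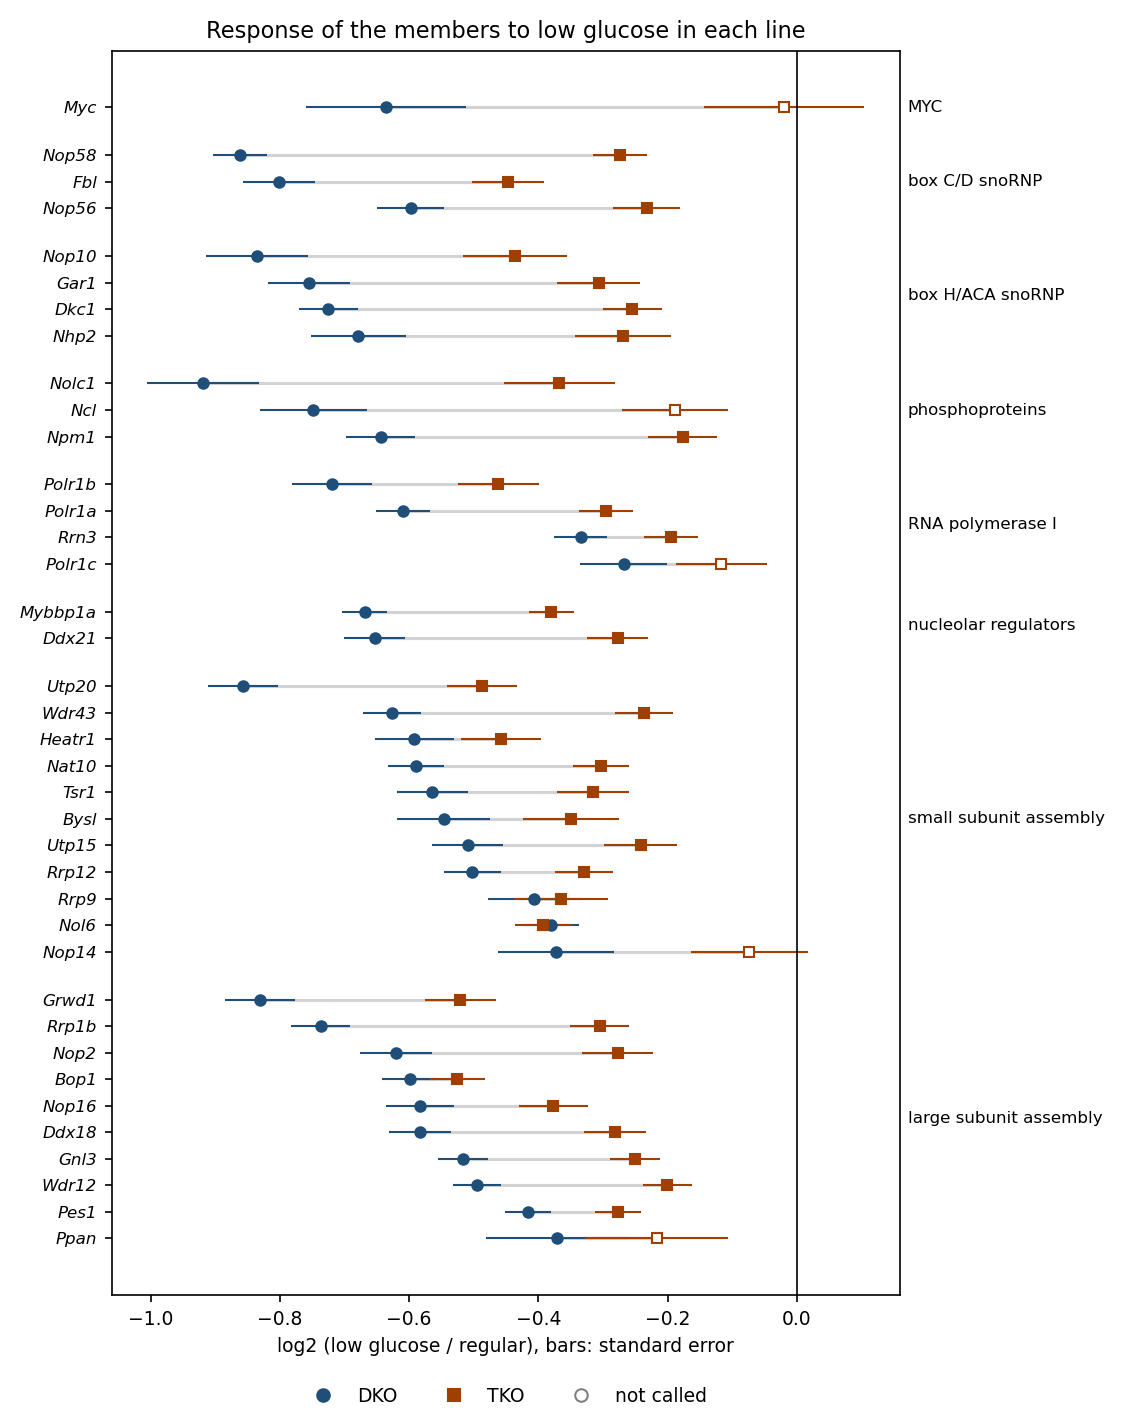
Log2 change of each member from regular to low-glucose medium in DKO (circles) and TKO (squares), with the standard error of the model as bars and open symbols where the test was not passed. All DKO points lie left of 0, between -0.27 and -0.92, and the TKO points lie between -0.02 and -0.53, to the right of DKO for every member but Nol6.

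Between the lines, the members differed little in regular medium and more in low glucose. In regular medium 16 members were higher in TKO and 4 lower (Gnl3, Rrn3, Nop10 and Polr1c), with 18 not called, where 28.3% of all tested genes were higher and 33.4% lower. That balance of all genes, 3396 higher and 3999 lower, turned over with the scaling and the filter: it was 3935 and 3524 with RLE size factors, 3938 and 3525 with DESeq2 and 4209 and 3497 without the low-count filter. The median difference of the members was 0.11 and the range -0.74 (Gnl3) to 0.46 (Ppan). The median was 0.07 without the library numbered 2 of TKO in regular medium, 0.16 with RLE size factors or DESeq2 and 0.17 without the low-count filter or on log2 TPM. Of these calls 10 higher and 3 lower held under each of the other settings tried that applied; Nat10 (log2 0.08), Nhp2 (0.14), Nolc1 (0.14), Wdr43 (0.06) and Polr1c (-0.09) lost theirs without the library numbered 2 of TKO in regular medium, Nop2 (0.16) without the library numbered 2 of DKO and Heatr1 (0.15) without the library numbered 3 of TKO in that medium, among others. In low glucose 33 members were higher in TKO and Gnl3 alone was lower, where 37.2% of all tested genes were higher and 37.4% lower. Nop10, Polr1c, Rrn3 and Nol6 were not called there. The median difference was 0.40 and the largest 0.79 (Nolc1), and 8 members were at least 1.5-fold higher, as were 17.1% of all tested genes. All 16 members that were higher in regular medium were higher in low glucose as well. The comparisons share their libraries, so the calls of one are no independent support for another.

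**Figure D3:**
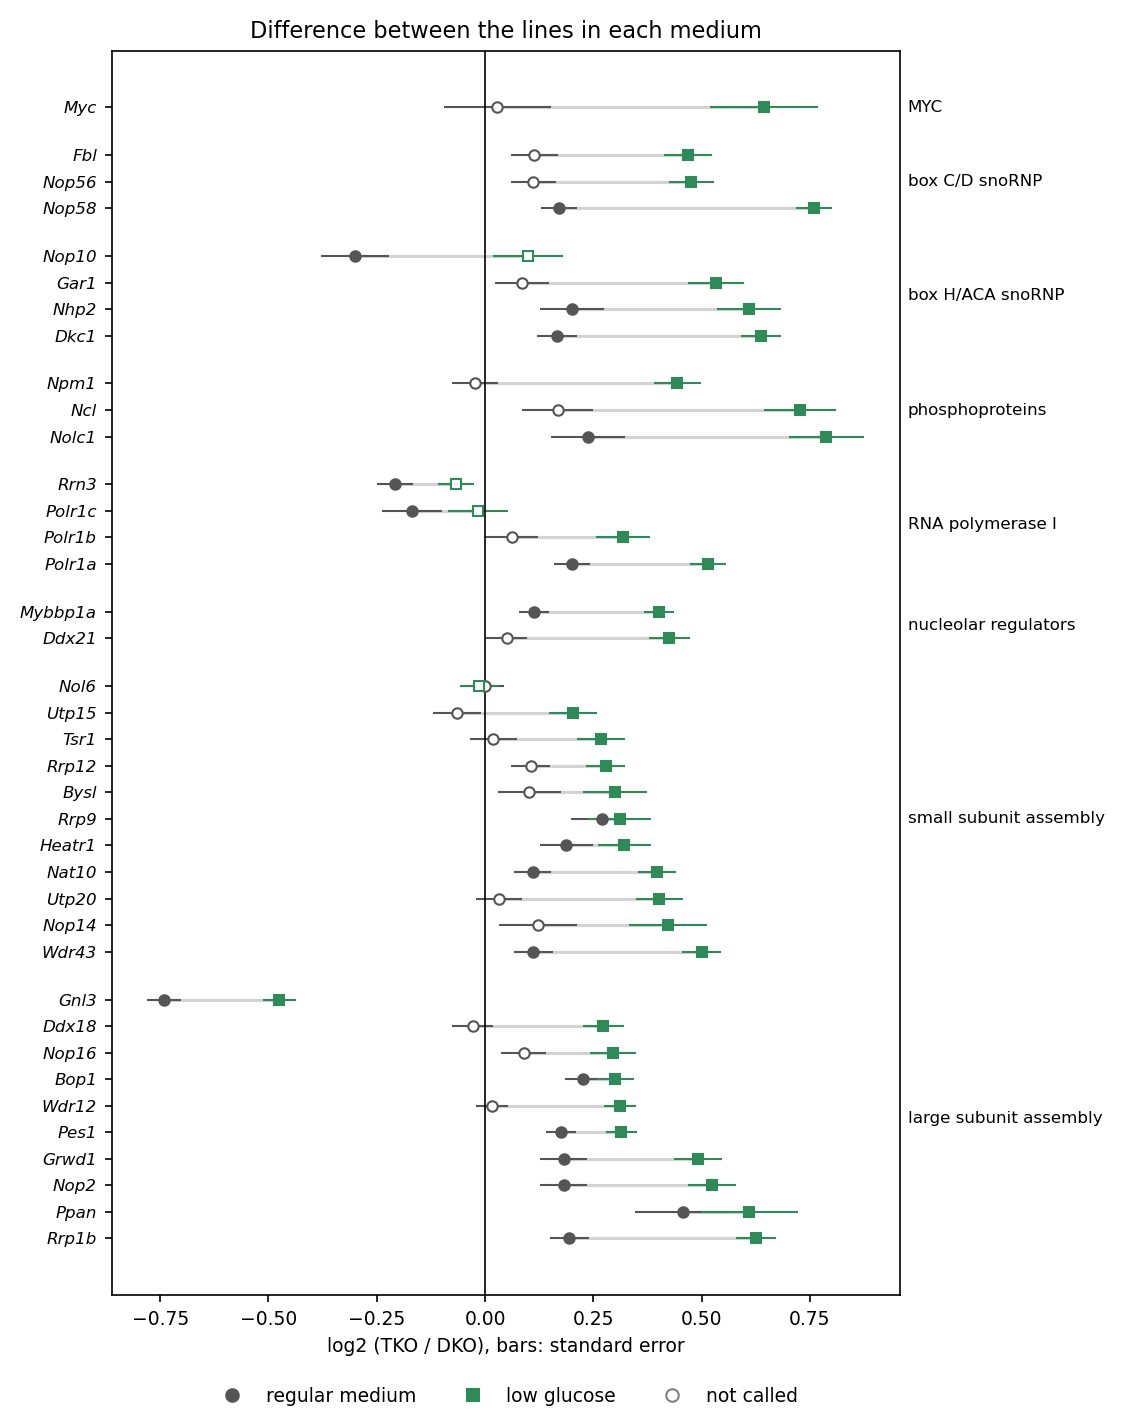
Log2 difference of TKO from DKO for each member in regular medium (circles) and in low glucose (squares), with standard errors as bars and open symbols where the test was not passed. Most circles lie near 0 and most squares between 0.2 and 0.8, while Gnl3 lies left of 0 in both media.

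**Figure D4:**
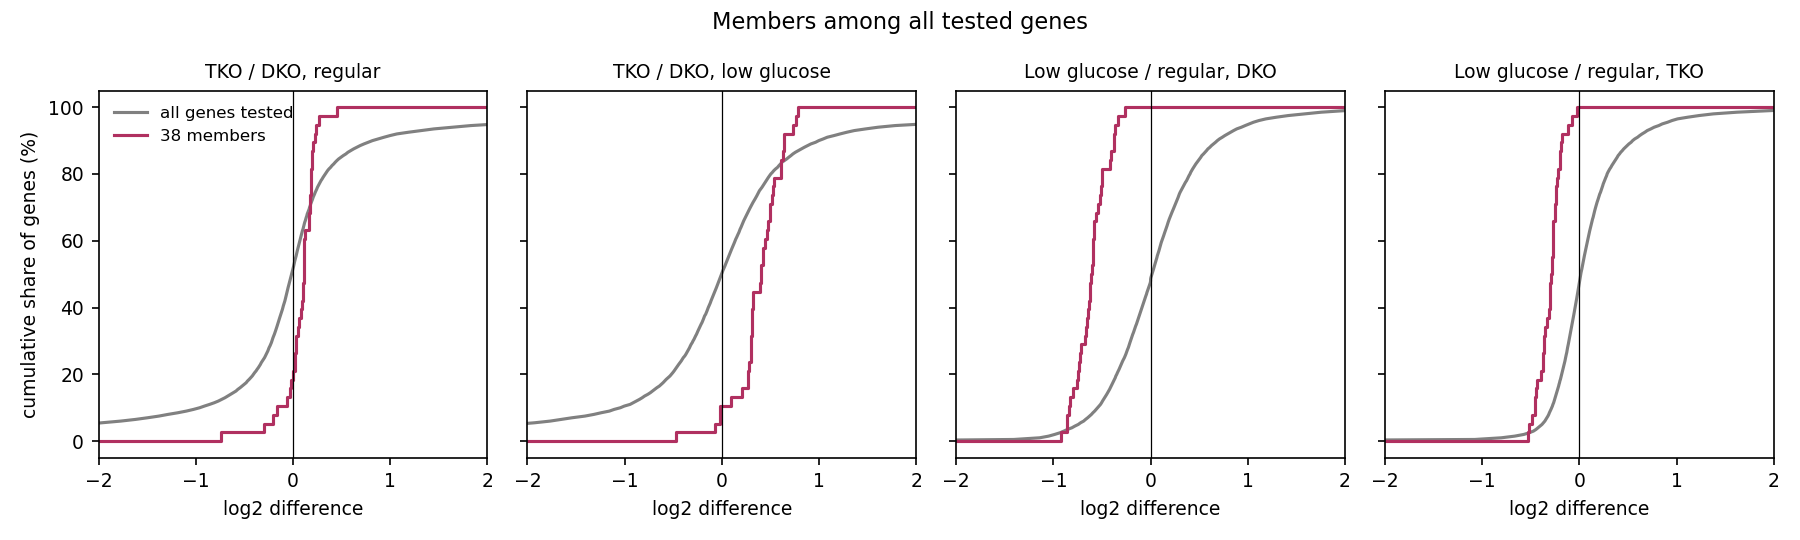
Cumulative share of the 38 members (dark red steps) and of all 11988 tested genes (grey) against the log2 difference in 4 comparisons. The members are displaced to the left in both low-glucose responses, with medians of -0.60 in DKO and -0.29 in TKO, and to the right in the comparison of the lines in low glucose, with a median of 0.40.

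Myc (chromosome 15, 61985391 to 61990374, plus strand, GRCm38) fell in low glucose in DKO and was not called in TKO, where its libraries were scattered. DKO libraries stood at 333, 321 and 322 CPM in regular medium and at 212, 207 and 210 CPM in low glucose. TKO libraries stood at 304, 396 and 295 CPM in regular medium and at 327, 396 and 261 CPM in low glucose. The DKO groups did not overlap, the TKO groups did, and the library numbered 2 was the highest of its TKO group in both media. Myc fell by 0.64 ± 0.124 on the log2 scale in DKO (SE; 1.55-fold, edgeR adjusted p = 0.000464), and in TKO its change was -0.02 ± 0.124 (adjusted p = 0.919). The lines differed by 0.03 ± 0.123 in regular medium (adjusted p = 0.857), a value of -0.12 without the library numbered 2 of TKO in regular medium and not called either way. In low glucose Myc was 1.56-fold higher in TKO (log2 0.64 ± 0.124, adjusted p = 0.000306). The responses differed by 0.62 ± 0.175 (adjusted p = 0.0168), the largest value among the members and the one with the widest standard error, and it ran from 0.46 to 0.76 and stayed called when each library was left out in turn. On the TPM scale the order was DKO in low glucose at 173 ± 5.27 TPM, then DKO in regular medium at 263 ± 4.22, TKO in regular medium at 280 ± 50.5 and TKO in low glucose at 282 ± 55.9 TPM, the last 3 lying within the spread of the TKO libraries.

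**Figure D5:**
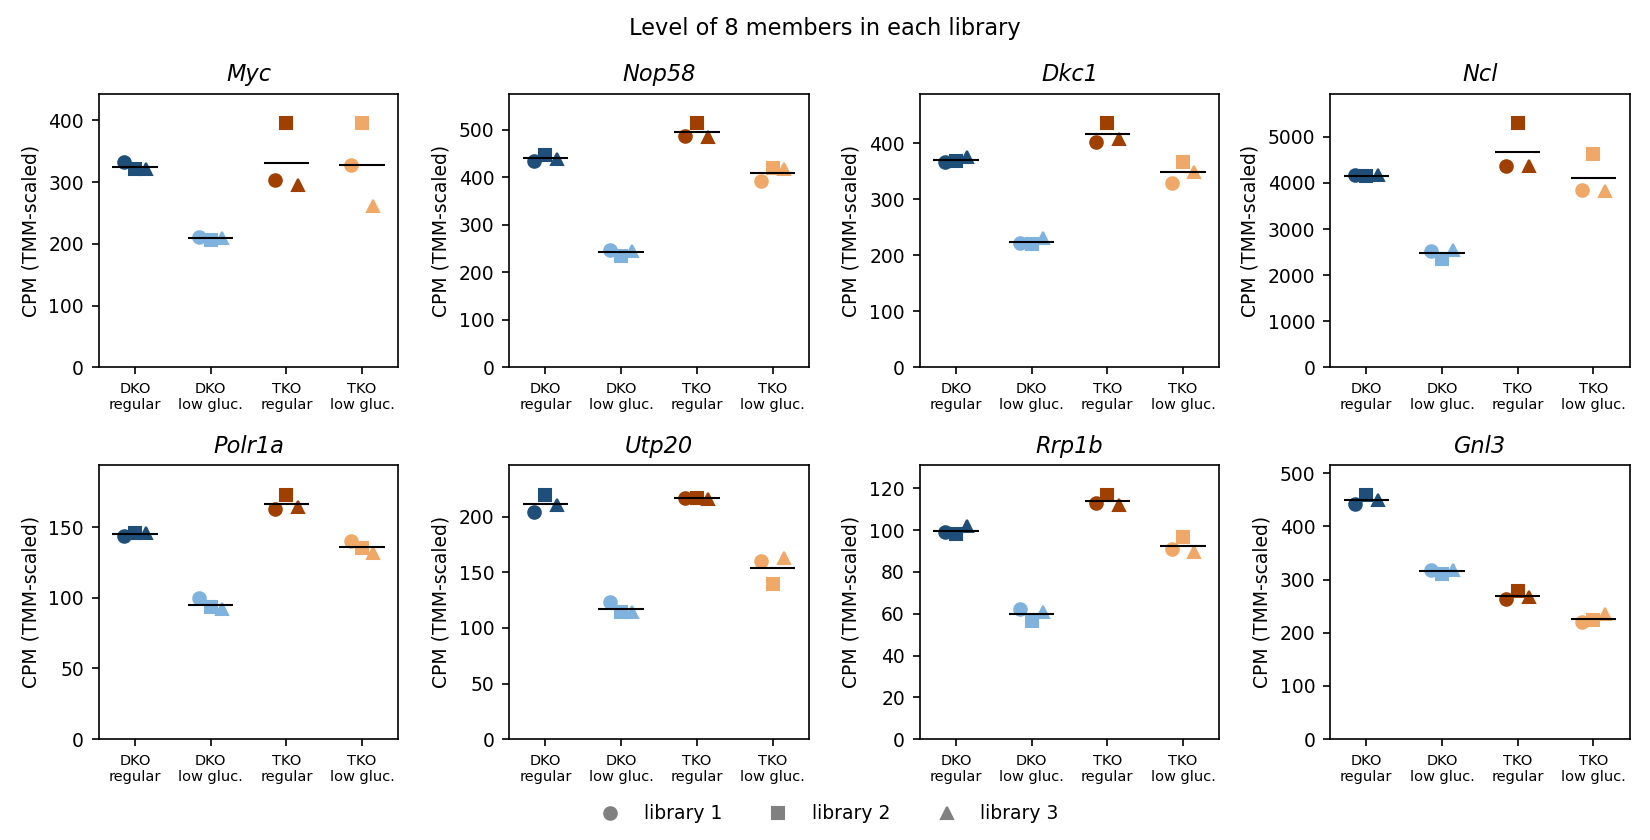
CPM of 8 members in each of the 12 libraries, with group means as bars and the library number as the symbol; every axis starts at 0. DKO in low glucose lies lowest for Myc, Nop58, Dkc1, Ncl, Polr1a, Utp20 and Rrp1b, TKO libraries numbered 2 stand above the others of their group for Myc and Ncl, and Gnl3 is lower in TKO than in DKO in both media.

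The box C/D snoRNP, which carries out methylation of ribosomal RNA, had all 3 of its members lower in low glucose in both lines. Nop58, a scaffold protein of the particle, stood at 433, 447 and 438 CPM in DKO in regular medium and at 246, 234 and 245 CPM in low glucose. Its TKO libraries stood at 487, 514 and 484 CPM and at 391, 420 and 416 CPM in the same order. No groups compared overlapped, and both TKO groups lay well above DKO in low glucose. Nop58 fell 1.82-fold in DKO (log2 -0.86 ± 0.042, edgeR adjusted p = 7.07e-10) and 1.21-fold in TKO (-0.27 ± 0.0417, adjusted p = 0.000175), and this difference of 0.59 ± 0.059 had the lowest adjusted p of the test of the responses among the members (6.8e-06). Fbl, the methyltransferase fibrillarin, stood at 333, 302 and 312 CPM in DKO in regular medium, at 178, 172 and 193 CPM in DKO in low glucose, at 354, 317 and 354 CPM in TKO in regular medium and at 253, 245 and 254 CPM in TKO in low glucose. Its libraries overlapped between the lines in regular medium and in no other comparison. It fell 1.74-fold in DKO (log2 -0.80 ± 0.0554, adjusted p = 2.12e-08) and 1.36-fold in TKO (-0.45 ± 0.0554, adjusted p = 3.27e-05). Nop56, the partner of Nop58, stood at 385, 379 and 382 CPM and at 255, 249 and 254 CPM in DKO, and at 400, 442 and 396 CPM and at 345, 378 and 331 CPM in TKO. It fell 1.51-fold in DKO and 1.17-fold in TKO, with no overlap in either line. A single member of the group, Nop58, was called higher in TKO in regular medium. Nop56 at 0.11 and Fbl at 0.11 were not, and both were called with DESeq2, with RLE size factors, without the low-count filter and on log2 TPM. Single libraries also brought the call about when left out: for Fbl the library numbered 1 of DKO (0.15) or 2 of TKO (0.16) in regular medium or 2 of DKO in low glucose (0.14), and for Nop56 the libraries numbered 1 or 2 of DKO (0.13) or 2 or 3 of TKO (0.11) in low glucose.

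The box H/ACA snoRNP guides pseudouridylation, and all 4 of its core proteins fell in both lines. Dkc1, the pseudouridine synthase dyskerin, stood at 366, 368 and 376 CPM in DKO in regular medium and at 221, 220 and 230 CPM in low glucose, and at 402, 436 and 408 CPM and 329, 366 and 349 CPM in TKO. The media did not overlap in either line. It fell 1.65-fold in DKO (log2 -0.72 ± 0.0459, edgeR adjusted p = 8.84e-09) and 1.19-fold in TKO (-0.25 ± 0.0458, adjusted p = 0.000631). Gar1 stood at 125, 117 and 115 CPM and at 68.6, 68.9 and 74.1 CPM in DKO, and at 127, 131 and 121 CPM and at 103, 112 and 91.9 CPM in TKO. It fell 1.69-fold in DKO and 1.24-fold in TKO, and its libraries overlapped between the lines in regular medium. Nop10, the smallest core protein, departed from the others: it stood at 104, 99.7 and 98.6 CPM and at 54.8, 57.7 and 56.8 CPM in DKO, and at 87.2, 70.5 and 87.3 CPM and at 60.5, 54 and 66.1 CPM in TKO. It was lower in TKO in regular medium (log2 -0.30 ± 0.0781, adjusted p = 0.00408), and in low glucose the lines overlapped (0.10 ± 0.0798, adjusted p = 0.273; 0.17 and called without the TKO libraries numbered 2). Nhp2, by contrast, was 1.53-fold higher in TKO in low glucose. The difference between the responses was called for all 4, between 0.40 (Nop10) and 0.47 (Dkc1).

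Nucleolar phosphoproteins and chaperones include the most abundant members. Ncl, nucleolin, stood at 4170, 4140 and 4160 CPM in DKO in regular medium and at 2520, 2360 and 2550 CPM in low glucose, while TKO libraries stood at 4360, 5300 and 4360 CPM and at 3850, 4620 and 3830 CPM. The DKO groups were far apart, and the TKO groups overlapped through the library numbered 2, the highest in both media. Ncl fell 1.68-fold in DKO (log2 -0.75 ± 0.0826, edgeR adjusted p = 2.33e-06), and its TKO change of -0.19 ± 0.0822 was not called (adjusted p = 0.0843), though it was at -0.28 without the library numbered 2 of TKO in low glucose and at -0.18 without that number in both media. Npm1, nucleophosmin, stood at 2400, 2460 and 2450 CPM and at 1570, 1530 and 1580 CPM in DKO, and at 2320, 2580 and 2290 CPM and at 2030, 2260 and 2070 CPM in TKO. It fell 1.56-fold in DKO (-0.64 ± 0.0538, adjusted p = 1.43e-07) and 1.13-fold in TKO (-0.18 ± 0.0536, adjusted p = 0.0176), and the TKO call was lost in 6 of the settings tried, among them those without the library numbered 2 of TKO in regular medium (-0.12), the library numbered 1 of TKO in low glucose (-0.15) and either of 2 DKO libraries in low glucose (-0.15). Nolc1, the snoRNP chaperone Nopp140, stood at 363, 358 and 361 CPM and at 196, 189 and 188 CPM in DKO, and at 402, 484 and 391 CPM and at 319, 379 and 293 CPM in TKO. It had the largest fall of the set in DKO, 1.89-fold (-0.92 ± 0.0867, adjusted p = 4.91e-07), and the largest excess in TKO in low glucose, 1.73-fold (0.79 ± 0.0868, adjusted p = 1.35e-06).

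RNA polymerase I makes the ribosomal RNA precursor, and its 4 members fell in DKO by unequal amounts. Polr1a, the largest subunit, stood at 144, 146 and 146 CPM in DKO in regular medium and at 99.6, 93.5 and 92 CPM in low glucose, and at 163, 173 and 164 CPM and 140, 135 and 132 CPM in TKO. No groups compared overlapped. It fell 1.53-fold in DKO (log2 -0.61 ± 0.0414, edgeR adjusted p = 1.79e-08) and 1.23-fold in TKO (-0.30 ± 0.0415, adjusted p = 9.3e-05), and was higher in TKO in both media. Polr1b, the other large catalytic subunit, stood at 104, 106 and 101 CPM and at 63.2, 61.4 and 64.1 CPM in DKO, and at 110, 98.3 and 116 CPM and at 78.8, 72.2 and 84.1 CPM in TKO. It fell 1.65-fold in DKO and 1.38-fold in TKO, and the difference between these (0.26 ± 0.0875, adjusted p = 0.0398) lost its call in 12 of the settings tried, with values from 0.18 to 0.28. Rrn3, the initiation factor TIF-IA that brings the polymerase to the ribosomal gene promoter, stood at 138, 134 and 135 CPM and at 108, 110 and 105 CPM in DKO, and at 117, 112 and 123 CPM and at 104, 99.1 and 105 CPM in TKO. It was lower in TKO in regular medium (-0.21 ± 0.0413, adjusted p = 0.000559), fell by 0.33 on the log2 scale in DKO and by 0.19 in TKO, and did not differ beyond the test between the lines in low glucose (-0.07, adjusted p = 0.154). Polr1c stood at 63.9, 63.6 and 63.6 CPM and at 52.5, 53.7 and 52.5 CPM in DKO, and at 57.8, 50.1 and 62 CPM and at 52.8, 47.5 and 56.1 CPM in TKO. It had the smallest fall of the set in DKO (1.20-fold, -0.27 ± 0.068, adjusted p = 0.00336), and its lower level in TKO in regular medium (-0.17, adjusted p = 0.0475) was lost with 16 of the other settings, down to -0.09 without the library numbered 2.

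Both nucleolar regulators fell in both lines. Mybbp1a, a Myb-binding protein of the nucleolus whose promoter holds an E-box, stood at 668, 654 and 662 CPM in DKO in regular medium and at 427, 411 and 411 CPM in low glucose, and at 710, 722 and 714 CPM and at 562, 543 and 545 CPM in TKO. The groups did not overlap in any comparison. It fell 1.59-fold in DKO (log2 -0.67 ± 0.035, edgeR adjusted p = 1.39e-09) and 1.30-fold in TKO (-0.38 ± 0.035, adjusted p = 2.18e-06). Ddx21, an RNA helicase that works in ribosomal RNA transcription and processing, stood at 700, 690 and 696 CPM and at 456, 431 and 440 CPM in DKO, and at 688, 773 and 699 CPM and at 578, 616 and 589 CPM in TKO. It fell 1.57-fold in DKO and 1.21-fold in TKO, and the lines overlapped in regular medium.

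Assembly of the small subunit was covered by 11 members, of which 11 fell in DKO, 10 fell in TKO and 10 were higher in TKO in low glucose. Utp20, a large component of the small subunit processome, stood at 204, 220 and 211 CPM in DKO in regular medium and at 123, 114 and 114 CPM in low glucose, and at 217, 217 and 216 CPM and at 160, 140 and 163 CPM in TKO. It had the largest falls of the role in both lines, 1.81-fold in DKO (log2 -0.86 ± 0.0543, edgeR adjusted p = 8.84e-09) and 1.40-fold in TKO (-0.49 ± 0.0544, adjusted p = 1.33e-05). Wdr43, another processome protein, stood at 323, 335 and 330 CPM and at 213, 209 and 218 CPM in DKO, and at 345, 379 and 344 CPM and at 298, 315 and 293 CPM in TKO. It fell 1.54-fold in DKO and 1.18-fold in TKO, and in low glucose it was 1.41-fold higher in TKO, with no overlap. Nat10, the acetyltransferase that modifies cytidines of ribosomal RNA, stood at 142, 132 and 135 CPM and at 92.7, 89.1 and 90.3 CPM in DKO, and at 146, 153 and 143 CPM and at 122, 122 and 115 CPM in TKO. It fell by 0.59 on the log2 scale in DKO and by 0.30 in TKO.

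Some small subunit members fell alike in both lines or hardly in TKO. Nol6, a processome protein, stood at 123, 120 and 121 CPM and at 96.1, 94 and 89.6 CPM in DKO, and at 125, 117 and 122 CPM and at 97.1, 88.9 and 90.8 CPM in TKO. The lines overlapped in both media, the falls were 1.30-fold and 1.31-fold, and the difference between the responses was -0.01 ± 0.0617 (edgeR adjusted p = 0.907), the smallest of the set. Rrp9, a protein of the U3 snoRNP, likewise fell by 0.41 in DKO and by 0.37 in TKO on the log2 scale, and its difference of 0.04 ± 0.102 was not called (adjusted p = 0.808). Nop14 stood at 115, 113 and 117 CPM and at 90.2, 86.2 and 89.9 CPM in DKO, and at 115, 147 and 114 CPM and at 114, 135 and 108 CPM in TKO. Its fall in DKO was 1.30-fold, and in TKO, where the library numbered 2 was again the highest in both media, the change was -0.07 ± 0.0906 (adjusted p = 0.554). The difference of 0.30 between its responses was not called, and was called at 0.43 without the library numbered 2 of TKO in regular medium and at 0.36 without the library numbered 3 of TKO in low glucose. The remaining 5 (Utp15, Heatr1, Bysl, Rrp12 and Tsr1) fell by 0.50 to 0.59 in DKO and by 0.24 to 0.46 in TKO. Tsr1 and Utp15, called in the test of the responses, lost that call in 4 and 3 of the settings tried, without libraries numbered 2 (Tsr1, 0.24) or 3 (Tsr1, 0.24; Utp15, 0.26) of DKO in regular medium among them.

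Assembly of the large subunit was covered by 10 members, all of which fell in DKO, and 9 fell in TKO. Rrp1b stood at 99.2, 97.9 and 102 CPM in DKO in regular medium and at 62.4, 56.3 and 60.6 CPM in low glucose, and at 113, 117 and 112 CPM and at 90.8, 96.7 and 89.6 CPM in TKO. It fell 1.67-fold in DKO (log2 -0.74 ± 0.0457, edgeR adjusted p = 7.29e-09) and 1.24-fold in TKO (-0.31 ± 0.0458, adjusted p = 0.000158), and the groups did not overlap in any comparison. Grwd1, a chaperone of a large subunit protein, stood at 53.2, 53.4 and 55.1 CPM and at 31.1, 30.5 and 29.2 CPM in DKO, and at 62.8, 56.6 and 63.8 CPM and at 44.1, 39.7 and 43.6 CPM in TKO. It had the largest fall of the role in DKO, 1.78-fold, and fell 1.43-fold in TKO. Bop1, of the PeBoW complex with Pes1 and Wdr12, stood at 118, 109 and 112 CPM and at 75, 75.2 and 73.5 CPM in DKO, and at 135, 129 and 132 CPM and at 95.8, 87.8 and 91.7 CPM in TKO. It had the largest fall of the whole set in TKO (1.44-fold, -0.53 ± 0.0429, adjusted p = 7.39e-07), close to its 1.51-fold fall in DKO, and the difference of 0.07 ± 0.0604 was not called (adjusted p = 0.398). Its partners fell by 0.42 (Pes1) and 0.50 (Wdr12) in DKO and by 0.28 and 0.20 in TKO, and of the 3 the responses differed by test for Wdr12 alone (0.29 ± 0.0528, adjusted p = 0.000897), while Pes1 (0.14, adjusted p = 0.0522) was called in 8 of the other settings.

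The extremes between the lines in regular medium were both large subunit factors. Gnl3, the nucleolar GTPase nucleostemin, stood at 443, 460 and 449 CPM and at 318, 310 and 318 CPM in DKO, and at 263, 278 and 267 CPM and at 220, 225 and 235 CPM in TKO. Every TKO library lay below every DKO library in both media. In regular medium Gnl3 was 1.67-fold lower in TKO (-0.74 ± 0.0385, edgeR adjusted p = 4.37e-10) and 1.39-fold lower in low glucose (-0.48 ± 0.0385, adjusted p = 4.77e-08), and fell 1.43-fold in DKO and 1.19-fold in TKO. Ppan stood at 94.7, 87.7 and 91.2 CPM and at 72.2, 70.3 and 69.1 CPM in DKO, and at 117, 140 and 119 CPM and at 106, 132 and 86.8 CPM in TKO. It had the largest excess of the set in TKO in regular medium, 1.37-fold (0.46 ± 0.11, adjusted p = 0.00235), fell 1.29-fold in DKO, and had a TKO change of -0.22 ± 0.11 that was not called (adjusted p = 0.136) and was -0.38 and called without the library numbered 2 of TKO in low glucose. Nop2, a methyltransferase of large subunit ribosomal RNA, Nop16 and the helicase Ddx18 fell by 0.58 to 0.62 in DKO and by 0.28 to 0.38 in TKO. Over all members, the library numbered 2 was the highest of its group for 24 of 38 in TKO in regular medium and the lowest for 13, and in TKO in low glucose the highest for 18 and the lowest for 15. In DKO the library numbered 1 was the highest for 21 members in regular medium and 19 in low glucose, and the library numbered 2 the lowest for 22 in each. With the TKO library numbered 2 left out in both media, 36 members fell in TKO and 32 had a positive call in the test of the responses.

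Members with and without an E-box in the window read above had like medians. In DKO the 8 with the letters had a median low-glucose change of -0.62 and the 24 without them -0.59, and in TKO the medians were -0.30 and -0.28. In the test of the responses both medians were 0.30. These are descriptions of small sets and were not tested.

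Some members carry genes of small nucleolar RNAs, the guides of the snoRNPs, within their own boundaries: 8 of 38 (21.1%), against 279 of 21951 protein-coding genes (1.27%) in the GENCODE annotation of GRCm38. These were Nop56 with 5, Nop58 with 4, Ncl, Wdr43 and Gnl3 with 3 each, Tsr1 and Ppan with 2 each and Dkc1 with 1, 23 in all. The deposited counts of these genes may hold reads from more than 1 source where other genes overlap them. Of the 38 members 17 share exonic bases with a gene on the opposite strand, and the strand setting of the counting is not given in the sources used here: the largest overlaps are Tsr1 with Srr (1240 bases, 32.3% of its exonic bases) and Bysl with Ccnd3 (361 bases, 9.37%). For 7 members, Nop56, Npm1, Ddx18, Pes1, Fbl, Ddx21 and Wdr12, annotated pseudogene copies of at least 95% identity over at least 200 bases exist, 5 each for Nop56 and Npm1, and how reads shared with them were counted is not given either, so the levels of these members are uncertain to that degree.

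The rest of the ribosome assembly pathway moved in the same direction as the members. For this and the lists below, 31.1% of all tested genes fell and 31.6% rose in DKO, and 17.9% fell and 22% rose in TKO. Between the lines in low glucose, 37.2% of all tested genes were higher and 37.4% lower in TKO. In regular medium the shares were 28.3% higher and 33.4% lower. In the test of the responses they were 17.6% positive and 12.1% negative. Of 43 other genes of the small subunit processome 40 fell in DKO and none rose (median log2 -0.44), 27 fell in TKO and none rose (-0.19), and 34 were higher and 3 lower in TKO in low glucose. Pno1, which acts in late small subunit maturation, fell by 0.78 ± 0.0412 in DKO (edgeR adjusted p = 1.54e-09) and by 0.41 ± 0.0415 in TKO (adjusted p = 5.93e-06), and Utp18 was 1.47-fold higher in TKO in low glucose (adjusted p = 1.07e-08). Of 47 other large subunit assembly genes tested, 41 fell and 1 rose in DKO (median -0.45), and 29 fell and 1 rose in TKO (-0.20). Among them Rsl1d1 fell by 0.67 ± 0.0358 in DKO (adjusted p = 1.72e-09) and by 0.30 ± 0.0359 in TKO (adjusted p = 2.11e-05).

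The polymerases and their factors were more mixed. Of 17 other genes of RNA polymerase I and its initiation factors, some of them subunits shared with the other polymerases, 12 fell and 2 rose in DKO, and 7 fell and 1 rose in TKO. Taf1b, of the promoter selectivity factor, was lower in TKO in both media (log2 -0.93 ± 0.0592 and -0.84 ± 0.058, edgeR adjusted p = 4.49e-09 and 7.98e-09), and Ubtf, the upstream binding factor of the ribosomal genes, was higher in both (0.33 ± 0.0485 and 0.43 ± 0.0486, adjusted p = 3.41e-05 and 1.9e-06). Of 21 genes of RNA polymerase III, which makes transfer RNAs and the smallest ribosomal RNA, 15 fell and 2 rose in DKO, and 9 fell and 1 rose in TKO. Polr3g fell by 0.56 ± 0.0449 in DKO (adjusted p = 1.02e-07), while its paralog Polr3gl was lower in TKO in both media (-0.95 and -0.96, adjusted p = 1.14e-09 and 5.64e-10).

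Partners and competitors of MYC did not move as a block. Of 14 genes of the MYC network tested 5 rose and 5 fell in DKO, where 31.6% of all tested genes rose and 31.1% fell. In TKO 4 rose and 3 fell, where 22% of all tested genes rose and 17.9% fell. These counts were near the shares of all tested genes. Max, the obligate partner, was at -0.01 ± 0.0647 in DKO (edgeR adjusted p = 0.939) and -0.02 in TKO (adjusted p = 0.807). Mxd4 and Mxd1, which compete with MYC for MAX, rose by 0.94 ± 0.0461 and 0.58 ± 0.0542 in DKO (adjusted p = 7.54e-10 and 4.14e-07) and by 0.52 ± 0.054 and 0.36 ± 0.0728 in TKO (adjusted p = 6.53e-06 and 0.00159). Both were lower in TKO in regular medium (-1.14 and -1.21, adjusted p = 9.23e-11 and 7.94e-10) and in low glucose (-1.55 and -1.43, adjusted p = 1.15e-12 and 3.07e-11). The test of the responses was called for Mxd4 (-0.42, adjusted p = 0.000616) and not for Mxd1 (-0.23, adjusted p = 0.0755). Of the 14, 2 were higher and 5 lower in TKO in regular medium, where 28.3% of all tested genes were higher and 33.4% lower. In low glucose 4 were higher and 6 lower, where 37.2% of all tested genes were higher and 37.4% lower. Unlike Mxd4 and Mxd1, Mxd3 fell in DKO, by 0.77 ± 0.0861 (adjusted p = 2.6e-06). So did Ruvbl2, a helicase-like cofactor of MYC, with falls of 0.68 ± 0.0368 in DKO and 0.34 ± 0.0382 in TKO (adjusted p = 1.98e-09 and 1.45e-05). Mycn rose by 0.25 ± 0.0619 in DKO (adjusted p = 0.00254), and Mycl, with 67 counts over the 12 libraries, was too low to test. Max, Mxd3, Mycn and Mycl were picked with their values seen.

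Other known MYC targets outside the nucleolus shared the direction of the members in part. Of 30 such genes 23 fell and 4 rose in DKO (median log2 -0.60), 22 fell and 5 rose in TKO (-0.26), and 24 were higher and 4 lower in TKO in low glucose. Ppat, an enzyme of purine synthesis, fell by 0.93 ± 0.0375 in DKO (edgeR adjusted p = 1.38e-10), and Ldha, lactate dehydrogenase, was 0.80 ± 0.0343 higher in TKO in low glucose (adjusted p = 3.49e-11). Slc3a2, an amino acid transporter subunit also known as a target of the amino acid response, rose instead, by 1.25 ± 0.0437 in DKO and 0.54 ± 0.044 in TKO (adjusted p = 3.83e-11 and 7.46e-07). Between the lines the lowest adjusted p of these genes was that of Ccnd2, which was lower in TKO. Its difference was -1.11 ± 0.0372 in regular medium and -1.15 ± 0.0372 in low glucose (adjusted p = 2.68e-12 and 1.64e-12). In regular medium 11 of the 30 were higher in TKO and 4 lower, where 28.3% of all tested genes were higher and 33.4% lower. These counts moved with the scaling, to 15 and 2 with RLE size factors.

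Genes that act on MYC protein or on the kinases upstream of ribosome production went both ways, with 7 rising and 7 falling in DKO among 17 tested, and 5 rising and 6 falling in TKO. All tested genes went both ways too, with 31.6% rising and 31.1% falling in DKO, and 22% and 17.9% in TKO. Sesn2, an inhibitor of mTORC1 signalling, rose by 1.64 ± 0.0478 in DKO and by 1.09 ± 0.0562 in TKO (edgeR adjusted p = 8.56e-12 and 1.16e-08). Skp2, a ubiquitin ligase component of the cell cycle that also targets MYC, fell by 1.05 ± 0.0445 in DKO and by 0.36 ± 0.045 in TKO (adjusted p = 2.04e-10 and 3.88e-05). Mtor itself was lower in TKO in both media (-0.66 and -0.81, adjusted p = 6.74e-10 and 4.99e-11).

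The surveillance of ribosome assembly runs through a particle of ribosomal proteins that holds MDM2 and so spares p53. Of 9 genes of that pathway and its readouts 5 rose and 1 fell in DKO, and 4 rose and 1 fell in TKO. In the test of the responses none of the 9 was positive and 2 were negative. Over all tested genes 17.6% were positive and 12.1% negative in that test. Rpl5 is counted both here and among the cytosolic ribosomal protein genes below. Cdkn1a, the p53 target that encodes the inhibitor p21, rose by 0.56 ± 0.0371 in DKO and by 0.57 ± 0.0387 in TKO (edgeR adjusted p = 1.4e-08 and 1.43e-07) and was lower in TKO in regular medium (-1.01, adjusted p = 1.15e-11) as well as in low glucose (adjusted p = 8.48e-12). Trp53 was the gene that fell in DKO, by 0.34 ± 0.0452 (adjusted p = 1.44e-05).

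Host transcripts of small nucleolar RNAs outside the members divided in DKO, with 5 rising and 5 falling among 14 tested. All tested genes divided much alike there (31.6% rose and 31.1% fell). Snhg5 and Snhg4 fell by 0.73 ± 0.0428 and 0.92 ± 0.0688 (edgeR adjusted p = 4.03e-09 and 4.53e-08), and Gas5 rose by 0.42 ± 0.0382 (adjusted p = 3.5e-07). In TKO 6 fell and 1 rose, where 17.9% of all tested genes fell and 22% rose.

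In DKO, genes of the finished product moved opposite to the genes that assemble it, a direction that held with RLE size factors, without Rn45s and without the low-count filter. Of 77 cytosolic ribosomal protein genes tested 45 rose and 1 fell in DKO in low glucose (median log2 0.20), where all 38 members fell, and in TKO 10 rose and 3 fell (0.04). Fau, which encodes a ribosomal protein fused to a ubiquitin-like one, rose by 0.47 ± 0.0512 in DKO (edgeR adjusted p = 1.86e-06), and Rpl13a by 0.40 ± 0.0502 (adjusted p = 7.5e-06). In low glucose 54 were lower in TKO and 3 higher (median -0.27), where 33 members were higher, and in the test of the responses none was positive and 19 were negative (median -0.16), where 26 members were positive. Many of these genes have near-identical processed copies, so their levels are uncertain.

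Cell cycle genes had the direction of the members in each comparison. In regular medium 19 were higher and 1 lower in TKO. All 27 tested fell in DKO (median log2 -1.04), 19 fell and none rose in TKO (-0.24), 27 were higher in TKO in low glucose (0.97), and 27 were positive in the test of the responses (0.80). Mcm7, a subunit of the replicative helicase, fell by 1.30 ± 0.0322 in DKO and by 0.52 ± 0.0317 in TKO (edgeR adjusted p = 1.79e-12 and 5.22e-08). The part of a change in cycling in the members' levels was not tested.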

How the data were processed

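The 38 members and the gene lists were chosen with earlier results of these data known. Total RNA was purified with the RNeasy Mini kit and made into strand-specific libraries with a Kapa mRNA HyperPrep kit, per the labels' protocols. Reads were mapped to mm10, with STAR 2.7.3a and DESeq2 1.22.1 named, per the submitters' processing notes. In the table of counts that the authors deposited, each value is a whole number of reads for a gene symbol, not normalized. The deposited TPM table holds values of the authors that sum to 1000000 in each library, and the tool behind them is not given in the sources used here. The deposited tables of the authors' own comparisons were not used. Symbols, in capitals in the files, are written as in mouse annotation.

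These counts went into edgeR 4.0.16 (R 4.3.3). Genes passing filterByExpr (count minimum 10, total minimum 15) were kept, 11988 in all, TMM factors scaled the libraries, and all 12 entered 1 quasi-likelihood fit of 4 group means (8 residual degrees of freedom). Adjusted p-values are Benjamini-Hochberg over all genes tested, and a gene was called under 0.05. The test of the responses is the interaction of line and medium. SE is the log2 difference over the root of the F statistic. The test of the DKO response was tried on simulated counts with the spread of these libraries and changes planted in DKO in low glucose alone. Those counts came from the kind of model that the test assumes. Few genes were changed in them, whereas 62.7% of tested genes were called in DKO here. That trial therefore cannot show how the test performs on these libraries. The test of the responses and the shared deviations of TKO libraries were not simulated. No 2 libraries of a group agreed within counting noise (chi-square per degree of freedom from 2.02 to 49.9).

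Values per library are given for Myc and, in each role, for the 3 members with the lowest adjusted p in DKO in low glucose, for members against the majority of a comparison, and for those with its largest and smallest difference; from each list up to 3 genes a comparison with the lowest adjusted p were eligible, and Max, Mxd3, Mycn and Mycl of the MYC network were named outside this rule, with their values seen. The list of small nucleolar RNA hosts also held Rn45s, which is not a host and was left out of its counts. Alternatives were DESeq2 1.42.0, RLE size factors, no low-count filter, only the groups compared, limma 3.58.1 on log2(TPM + 1), Rn45s left out, a replicate block and leaving out each library. A fit without the TKO libraries numbered 2 and a blocked fit of the TKO libraries alone were chosen after seeing the data. Deviations from group means of same-numbered TKO libraries correlated between media at 0.34, 0.89 and 0.77, each over the 0.1 set for treating them as pairs, though the first library in regular medium correlated more (0.76) with a library of another number in low glucose. Over all 18 same-numbered pairs r ran from -0.57 to 0.89 and 8 passed 0.1.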

Additional observations from a re-analysis of the deposited data

Results flagged for a closer look

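For 26 members the response to low glucose differed between the lines by the test of that difference (edgeR quasi-likelihood interaction, Benjamini-Hochberg adjusted p under 0.05 over all genes tested), each with the smaller fall in TKO. On the log2 scale, as TKO response minus DKO response, the value for Myc was 0.62. Among box C/D proteins the values were Nop58 0.59, Nop56 0.36 and Fbl 0.35, and among box H/ACA proteins Dkc1 0.47, Gar1 0.45, Nhp2 0.41 and Nop10 0.40. Phosphoproteins and chaperones had Ncl 0.56, Nolc1 0.55 and Npm1 0.47. In RNA polymerase I they were Polr1a 0.31 and Polr1b 0.26, and for the nucleolar regulators Ddx21 0.38 and Mybbp1a 0.29. Small subunit factors had Wdr43 0.39, Utp20 0.37, Nat10 0.29, Utp15 0.27 and Tsr1 0.25, and large subunit factors Rrp1b 0.43, Nop2 0.34, Grwd1 0.31, Ddx18 0.30, Wdr12 0.29 and Gnl3 0.27. Polr1b, Tsr1 and Utp15 lost the call under some of the settings tried, and the other 23 kept it under all of them.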

How the results depend on the processing

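All counts of members called in each comparison and direction stayed within 1.5 times their value under each of the 21 other settings that applied, and no member that was called changed direction. In DKO 38 members fell under every setting. Of the calls in single members, 65 were lost and 85 gained over all members, comparisons and settings, against 3650 that kept their side of the threshold. When each library was left out in turn, members called higher in TKO numbered 11 to 20 in regular medium and 33 in low glucose each time, members that fell in TKO 32 to 35, and positive calls in the test of the responses 23 to 30. With DESeq2, RLE size factors, no low-count filter or log2 TPM, 21 members were higher in TKO in regular medium in place of 16. With the replicate block the counts were 17 higher and 4 lower in TKO in regular medium, 33 higher and 1 lower in low glucose, 38 that fell in DKO, 33 that fell in TKO and 27 positive in the test of the responses, and it changed no other member's call than Fbl between the lines in regular medium and Nop16 in the test of the responses. Blocked fits of the TKO libraries alone are given with the TKO response. With 3 libraries a group whose source is not given, differences in regular medium of about 0.1 on the log2 scale lay near what these libraries can resolve: calls there came and went with single libraries.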
